A study of Mus musculus with 8 samples.

Results

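Genes of the cell division cycle were followed in the dorsal skin of mouse embryos at embryonic days 14.5, 16.5 and 18.5 (E14.5, E16.5 and E18.5). The set is a list of 48 gene symbols. For each symbol, every probeset annotated to that symbol and to no other was taken, a probeset being the group of short probes that reads one transcript region on the array. This gave 107 of 34945 probesets with 1 symbol, covering 47 of the 48 symbols among 18193 genes tested. Ccnb1, which encodes cyclin B1, was not analysed here because no probeset carried its symbol alone. By role, 18 of the 47 measured genes act in S phase, 18 in mitosis, 8 are cyclins or cyclin-dependent kinases (Cdks), and 3 are transcription factors.

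A dividing cell copies its DNA in S phase and separates the copies in mitosis. Cyclins switch on Cdks in a fixed order, and those kinases fire replication origins and later start mitosis. E2F transcription factors drive many genes needed at the start of S phase, while later genes are held back in resting cells by the DREAM complex at CHR elements and are switched on by the B-Myb and FoxM1 complexes, often from promoters with CCAAT boxes bound by NF-Y. In embryonic skin the dividing cells lie mainly in the basal layer of the epidermis, in the growing hair follicles and in the dermis. Cells of the upper epidermal layers stop dividing as they mature.

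All embryos were wild-type, with no treatment given in the labels. Target made from total RNA of dorsal skin was hybridised to 8 arrays: E14.5 had 2 of them, and the later stages had 3 each. Values are signal intensities, deposited per probeset and not logged. The labels do not say whether arrays of a stage come from separate embryos or litters, so p-values cover only the spread among these samples, which may be technical. The skin label was borne out by its markers: on the 8 arrays the signal of Krt5 ran from 5932 to 22701, that of Krt10 from 10336 to 38931, and that of Col1a1 from 11323 to 31868. In such a bulk sample, fewer cells of a type and less RNA per cell cannot be told apart.

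Each array had its own background level, taken as the 95th percentile over 80 probesets of olfactory and vomeronasal receptor genes. It lay between 33.6 and 92.2, and all 47 genes lay above it on all 8 arrays. It was 33.6 to 53.2 on the E16.5 arrays and higher, at 62.2 to 92.2, on the E18.5 arrays. Of the 18193 genes tested, 12186 to 13820 lay above it on an array, so shares over all genes include dim genes. The part of the background level in those shares was not tested. Of the 107 probesets, 96 lay above it on at least 2 arrays and 11 did not. The ratio of the 3′ to the 5′ control probesets of actin was 6.49 and 6.91 on the E14.5 arrays, against 1.11 to 1.37 on the other 6. For Gapdh it was 2.96 and 3.03, against 0.69 to 0.87. That ratio is a common check of RNA length, but how the targets were made is uncertain, and what set the ratio was not tested. It cannot be told apart from stage, so the change from E16.5 to E18.5 is given first and weighed most. Over all genes, the correlation between pairs of the 6 later arrays ran from 0.95 to 0.99, and with an E14.5 array from 0.79 to 0.83.

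Promoter sequences are shown for Mcm6, for Top2a and for the genes that fell, except Foxm1, which had no promoter in the sources used. The words read by E2F, DREAM and NF-Y are marked. No difference in these words between the groups was tested. Each is the 250 bases before the transcription start, 5′ to 3′ on the gene's own strand, from RefSeq on build GRCm38.p6. Capitals mark an E2F word (TTTCCCGC, TTTGGCGC, TTTGCCGC or TTTCGCGC), a CHR word (TTTGAA or TTCGAA) or a CCAAT word, on either strand, so that a reverse match appears as its complement, such as ATTGG for CCAAT. Neighbouring matches can overlap and then form a single run of capitals, as in Mcm6. Tk1, Ccne1, Bub1 and E2f8 fell from E16.5 to E18.5. Mcm6 and Top2a, whose change did not pass the test, show E2F words in an S phase gene and CHR and CCAAT words in a mitosis gene. They are not typical of their groups. Mcm6 held more E2F matches than any other S phase window, and Top2a more CHR matches than any other mitosis window.
Tk1, chr11:117826015-117826264, minus strand: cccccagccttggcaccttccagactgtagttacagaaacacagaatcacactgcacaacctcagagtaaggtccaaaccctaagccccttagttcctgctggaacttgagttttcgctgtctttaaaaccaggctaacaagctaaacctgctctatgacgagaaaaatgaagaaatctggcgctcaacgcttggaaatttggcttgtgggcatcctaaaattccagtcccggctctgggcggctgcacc
Ccne1, chr7:38107491-38107740, minus strand: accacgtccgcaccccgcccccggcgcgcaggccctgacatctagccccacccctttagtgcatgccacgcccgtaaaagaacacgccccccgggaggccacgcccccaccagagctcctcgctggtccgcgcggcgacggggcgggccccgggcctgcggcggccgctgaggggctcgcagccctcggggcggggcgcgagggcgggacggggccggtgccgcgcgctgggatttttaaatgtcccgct
Bub1, chr2:127831860-127832109, minus strand: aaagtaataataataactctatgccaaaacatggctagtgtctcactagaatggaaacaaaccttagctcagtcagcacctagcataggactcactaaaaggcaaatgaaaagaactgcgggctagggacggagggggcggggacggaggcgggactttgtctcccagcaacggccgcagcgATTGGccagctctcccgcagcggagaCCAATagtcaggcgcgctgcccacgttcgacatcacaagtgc
E2f8, chr7:48881597-48881846, minus strand: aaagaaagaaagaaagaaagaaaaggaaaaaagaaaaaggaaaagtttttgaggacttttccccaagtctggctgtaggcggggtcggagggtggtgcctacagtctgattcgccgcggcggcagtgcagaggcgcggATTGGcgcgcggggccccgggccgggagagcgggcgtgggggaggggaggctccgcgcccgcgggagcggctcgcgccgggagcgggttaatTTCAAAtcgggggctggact
Mcm6, chr1:128359706-128359955, minus strand: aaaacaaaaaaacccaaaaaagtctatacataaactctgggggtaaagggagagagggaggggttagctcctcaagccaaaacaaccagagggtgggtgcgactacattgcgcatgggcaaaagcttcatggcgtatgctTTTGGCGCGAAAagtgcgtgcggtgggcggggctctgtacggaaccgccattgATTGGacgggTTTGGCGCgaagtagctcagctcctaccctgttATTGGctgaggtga
Top2a, chr11:99024190-99024439, minus strand: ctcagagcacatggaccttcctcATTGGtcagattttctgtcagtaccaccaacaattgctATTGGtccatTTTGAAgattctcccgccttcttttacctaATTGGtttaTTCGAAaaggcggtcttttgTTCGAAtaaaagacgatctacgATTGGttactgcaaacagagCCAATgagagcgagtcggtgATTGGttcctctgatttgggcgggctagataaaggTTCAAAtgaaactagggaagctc

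The Tk1 and Ccne1 windows held none of these words. The Bub1 window held 2 CCAAT words, and the E2f8 window held 1 CCAAT and 1 CHR word. Mcm6 held 3 E2F and 2 CCAAT words, and Top2a held 6 matches each of the CHR and CCAAT words, the palindrome TTCGAA counting on both strands. Of the 48 listed genes, 38 had a promoter in the table, with 39 windows since Mcm7 had 2. An E2F word stood in 6 of 17 S phase windows (35.3%), in 0 of 15 mitosis windows and in 2 of 5 windows of cyclins and Cdks, against 1.86% of all 32851 windows. A CHR word stood in 6 of 15 mitosis windows (40.0%) and 3 of 17 S phase windows (17.6%), against 17.1% of all windows. CCAAT was in 13 of 15 mitosis windows (86.7%) and 12 of 17 S phase windows (70.6%), against 33.8% of all. These are matches of letters within one window, not sites shown to be bound. Genes that fell and genes that did not are found both with and without CHR and CCAAT words. The windows of genes that fell held no E2F word, and all 8 member windows with one belonged to genes that did not fall. This difference was not tested.

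From E16.5 to E18.5, most cell cycle genes showed no change that passed the test. In limma's test over all genes, with Benjamini-Hochberg adjustment and a threshold of 0.05, 5 of 47 genes fell, 0 rose and 42 were not called. The genes that fell were Tk1, Bub1, Ccne1, Foxm1 and E2f8, and their number stands beside a background of 5.58% of all genes that fell and 7.28% that rose. The median change of the 47 genes was -0.03 on the log2(signal + 16) scale, against 0.12 over all genes. At an unadjusted p under 0.05 in the same limma fit, 7 members were lower and 5 higher, against 11.9% and 17.7% of all genes. The 95% interval of the change lay inside 1 log2 unit on either side of 0 for 41 of the 47 genes, and inside 0.5 for 24.

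**Figure D1:**
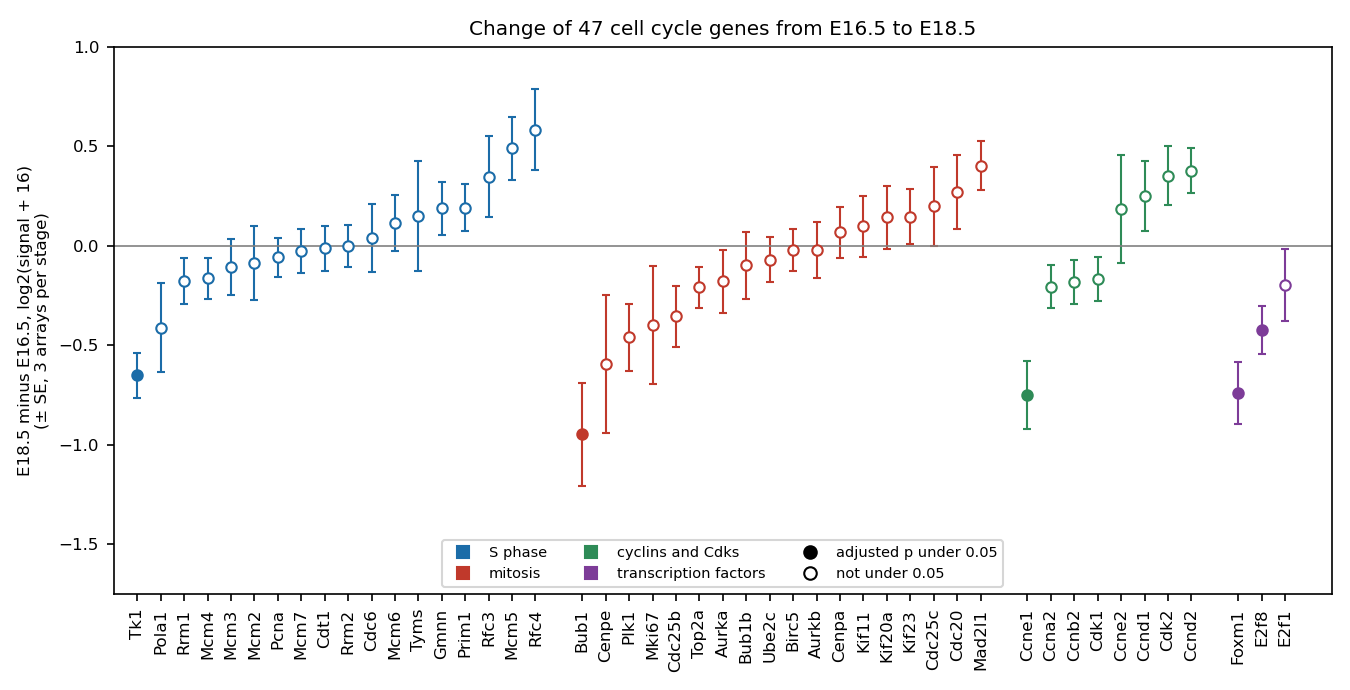
Change of each of 47 genes from E16.5 to E18.5 on the log2(signal + 16) scale (vertical axis), ordered within 4 roles along the horizontal axis; points are differences of stage means over 3 arrays each, bars are the standard error, and filled points passed an adjusted p of 0.05. The 5 filled points lie below 0, and the other genes spread on both sides of it.

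Roles gave similar medians apart from the transcription factors. The median change was -0.01 for the 18 S phase genes, of which 1 fell, and -0.05 for the 18 mitosis genes, of which 1 fell. It was 0.01 for the 8 cyclins and Cdks, of which 1 fell, and -0.42 for the 3 transcription factors, of which 2 fell. Centring every array on its median moved the median of all genes from 0.12 to -0.05, and those of S phase and mitosis genes to -0.18 and -0.22. The share of all called genes that rose went from 56.6% to 27.5% with it. Directions of small changes therefore hold only relative to the scaling of the deposited signals.

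Among S phase genes, Tk1 fell. It encodes thymidine kinase 1, which salvages thymidine for DNA synthesis. Its signal was 2695, 2331 and 2768 on the E16.5 arrays and 1797, 1590 and 1561 on the E18.5 arrays. All E18.5 arrays lay below all E16.5 arrays, while the E14.5 arrays, at 1347 and 1322, lay lower still. The fall was 1.57-fold (log2 change -0.65 ± 0.11, SE, n = 3 and 3, limma adjusted p = 0.00657). It passed the test under all 18 alternative settings, with changes from -0.82 to -0.60 and a highest adjusted p of 0.0464 in limma. Tk1 had 1 probeset, so the settings that average probesets could not alter its change.

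The other S phase genes did not pass. Pcna, the sliding clamp that holds DNA polymerase on its template, read 10668, 10695 and 10857 at E16.5 and 10287, 11355 and 9436 at E18.5. The stages overlapped, with a log2 change of -0.06 and a 95% interval from -0.27 to 0.16. Rrm2, the small subunit of ribonucleotide reductase, which makes deoxynucleotides, read 4029, 3570 and 3520 and then 3517, 4109 and 3500. Its interval ran from -0.23 to 0.23, and that of Mcm7, a subunit of the replicative helicase, from -0.27 to 0.22. A fall of the size of that of Tk1 lies outside all 3 intervals. Cdt1, which loads the helicase at origins, had a log2 change of -0.01, and its inhibitor geminin (Gmnn) one of 0.19.

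Of the S phase genes that did not pass, Mcm5 and Rfc4 had the highest values of the change. Mcm5, another helicase subunit, read 2771, 2796 and 2666 at E16.5 and 4925, 3807 and 3068 at E18.5. All E18.5 arrays lay above all E16.5 arrays, yet they spread widely, and the log2 change of 0.49 ± 0.16 had an adjusted p of 0.0692 in limma. It passed with quantile normalization. Of the other Mcm5 probesets, 1415945_at had a change of 0.08 and the dim 1459658_at, above background on 6 arrays, one of 0.72. Neither passed in the fit over all probesets. Rfc4, part of the factor that loads the Pcna clamp, read 773, 666 and 601 and then 1239, 1174 and 734, so that the third E18.5 array lay within the E16.5 range. Its log2 change was 0.58 (limma adjusted p = 0.0863). Without the third E18.5 array, Mcm5 (0.66, limma adjusted p = 0.0141), Rfc4 (0.82, limma adjusted p = 0.0103) and Rfc3 (0.59, limma adjusted p = 0.0292) were called as risen. Pola1, the catalytic subunit of the polymerase that starts new strands, was lower on all E18.5 arrays (423, 758 and 813) than on the E16.5 arrays (852, 850 and 864) but did not pass, at -0.41 ± 0.22.

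Among mitosis genes, Bub1 fell. It encodes a kinase of the spindle checkpoint, which delays chromosome separation until every kinetochore is attached. Its signal was 1399, 1385 and 1522 at E16.5 and 493, 685 and 1177 at E18.5. The stages did not overlap, but the third E18.5 array lay close to the E16.5 level. The fall was 1.93-fold (-0.95 ± 0.26, limma adjusted p = 0.0390), and it did not pass under 9 of 18 alternatives. Those were quantile normalization, a fit with no variance trend, averaging its probesets by mean or median, and leaving out any E16.5 array or the first or second E18.5 array. A second, dimmer Bub1 probeset (1438571_at) had a change of 0.32 that did not pass.

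Mki67 and Cenpe showed the same array standing apart. Mki67, the gene of the proliferation marker Ki-67, read 4984, 4626 and 5065 at E16.5 and 2422, 3114 and 6764 at E18.5. Of the E18.5 arrays, 2 lay below and the third lay above every E16.5 array. Over all arrays the log2 change was -0.40 ± 0.30 (limma adjusted p = 0.404). Cenpe, a kinesin of the kinetochore, read 871, 762 and 886 and then 390, 381 and 1108, with the third E18.5 array again the highest and a change of -0.59 that did not pass. Without the third E18.5 array, both were called as fallen, Mki67 (-0.83, limma adjusted p = 0.00437) and Cenpe (-1.09, limma adjusted p = 0.00574).

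**Figure D2:**
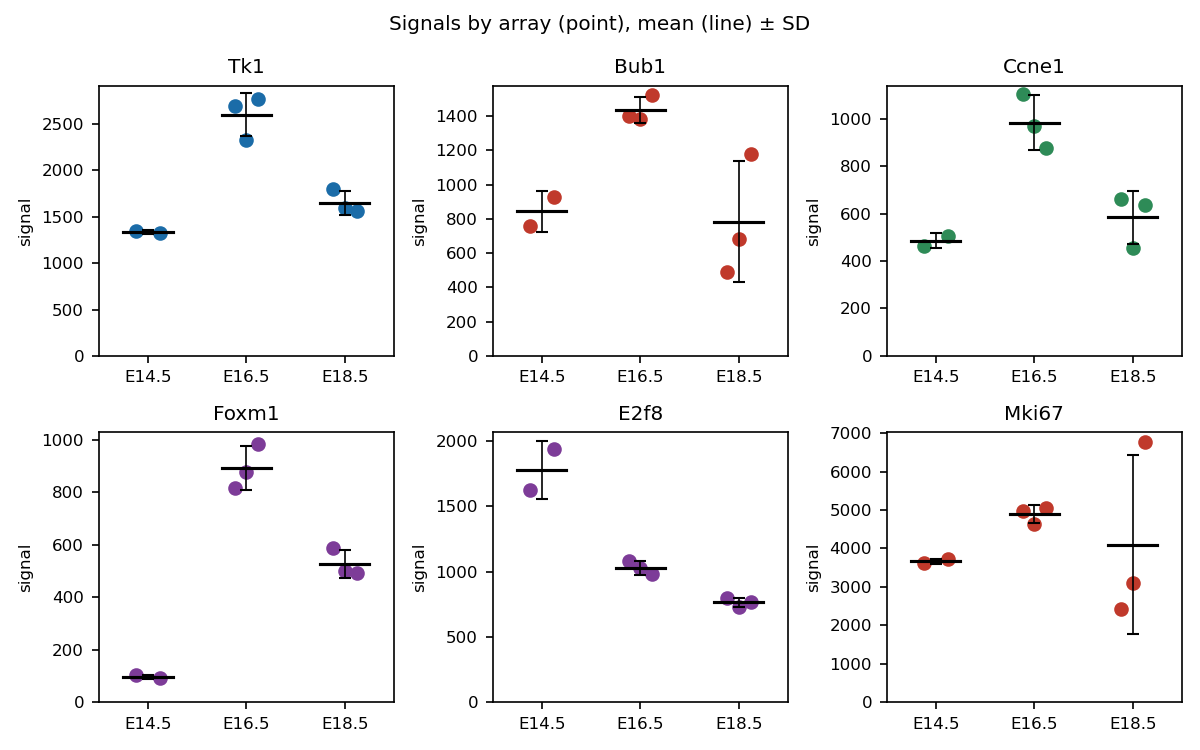
Signal (linear scale, vertical axis) of the 5 genes that fell and of Mki67 on each array, by stage; points are arrays, the line is the stage mean and the bars are SD (n = 2, 3 and 3). Tk1, Ccne1, Foxm1 and E2f8 have every E18.5 array well below E16.5, whereas Bub1 and Mki67 each have 1 high E18.5 array, at 1177 and 6764.

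The other mitosis genes spread on both sides of 0. Plk1, a kinase needed to enter and complete mitosis, read 1124, 1191 and 1311 and then 1066, 721 and 866. Its groups did not overlap, and its change of -0.46 ± 0.17 had an adjusted p of 0.101 in limma; it passed with median centring (-0.63) and without the first E18.5 array. Mad2l1, a spindle checkpoint protein, read 1331, 1472 and 1477 at E16.5 and 1647, 1988 and 2061 at E18.5. All its E18.5 arrays were higher, and the change of 0.40 ± 0.12 (limma adjusted p = 0.0596) passed with quantile normalization and without the first E18.5 array. Top2a, the topoisomerase that untangles chromosomes, was lower on all E18.5 arrays (4084 to 4799) than at E16.5 (5075 to 5298), by -0.21 ± 0.10, without passing. A second, dimmer Top2a probeset (1442454_at) read 531, 478 and 500 and then 767, 366 and 636. Its stages overlapped, with a change of 0.16 that did not pass. Birc5, the survivin subunit of the Aurora B complex, had a change of -0.02 with an interval from -0.26 to 0.21.

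Of the cyclins, Ccne1 fell. Cyclin E1 activates Cdk2 at the start of S phase. The signal was 1106, 971 and 875 at E16.5 and 660, 455 and 638 at E18.5, so the stages did not overlap. The fall was 1.68-fold (-0.75 ± 0.17, limma adjusted p = 0.0203), and it did not pass when any of the E16.5 arrays was left out. Its other probeset (1416492_at) read 442 to 522 on the E16.5 arrays and 292 to 376 on those of E18.5, a change of -0.47 that did not pass in the fit over all probesets. Ccne2, the related cyclin E2, had a change of 0.19 ± 0.27 that did not pass.

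The D-type cyclins, which start the cycle in response to growth signals, had several probesets each. The probeset used for Ccnd2 read 6857, 6936 and 6606 at E16.5 and 9949, 7943 and 8748 at E18.5. All E18.5 arrays were higher, with a log2 change of 0.38 ± 0.11 just short of the threshold (limma adjusted p = 0.0533), and it passed under 7 of 18 alternatives. In the fit over all probesets, 4 of its 7 probesets rose, by 0.65 to 1.65, and none of the others was called. For Ccnd1, 1 of 3 probesets rose (0.45), and the probeset used had a change of 0.25 that did not pass. Ccnb2, a mitotic cyclin, was lower on all E18.5 arrays (1930 to 2056) than at E16.5 (2193 to 2343), and its change of -0.18 did not pass. For Cdk1, its kinase, the change was -0.16, and for Cdk2 it was 0.35, neither passing.

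The transcription factors Foxm1 and E2f8 fell, and E2f1 did not pass. Foxm1 drives genes of G2 and mitosis. Its signal was 817, 878 and 983 at E16.5 and 589, 502 and 493 at E18.5, with no overlap, after 103 and 92.4 at E14.5. The fall was 1.67-fold (-0.74 ± 0.16, limma adjusted p = 0.0147); it did not pass without the second or the third E16.5 array or when its probesets were averaged by mean or median. A second probeset (1417748_x_at) also fell (-0.80), while 1448834_at had a change of 0.19 that did not pass. The averages also hold 1437138_at (0.29), which lay above background on 0 arrays.

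E2f8, an atypical E2F that represses E2F targets, read 1081, 1026 and 978 at E16.5 and 800, 727 and 766 at E18.5. The stages did not overlap, and the E14.5 arrays, at 1620 and 1934, were higher than both. The fall was 1.34-fold (-0.42 ± 0.12, limma adjusted p = 0.0471). In the fit over all probesets the same probeset (1436186_at) did not pass (limma adjusted p = 0.0581). Nor did the second (1444319_at), with a change of -1.44. The call over genes, nearest to the threshold, did not pass when any of the 6 later arrays was left out. It also did not pass with quantile normalization, robust variance or no variance trend. For E2f1, an activator of S phase genes, the change was -0.19 ± 0.18.

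By the probesets used, values at E18.5 lay wholly below those at E16.5 for 9 of 47 members, against 14.5% of all genes. They lay wholly above for 4 members, against 24.1%. The 9 lower genes were the 5 called genes with Pola1, Plk1, Top2a and Ccnb2, and the 4 higher were Mcm5, Mad2l1, Ccnd2 and Cdk2.

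The E18.5 arrays differed among themselves, and the lowest array was not the same for S phase and mitosis genes; the difference was not tested. For 15 of 18 S phase genes the third E18.5 array was the lowest of its stage, which held for 34.3% of all genes. Their median deviation from the mean over the 6 later arrays was 0.11, 0.07 and -0.17 on the 3 arrays. For mitosis genes the second array was the lowest in 11 of 18, against 38.5% of all genes, with medians of 0.09, -0.19 and -0.01. The first array was the highest of its stage for 28 of all 47 members, against 43.0% of all genes. The E16.5 arrays were closer together, from -0.04 to 0.07 for both roles.

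**Figure D3:**
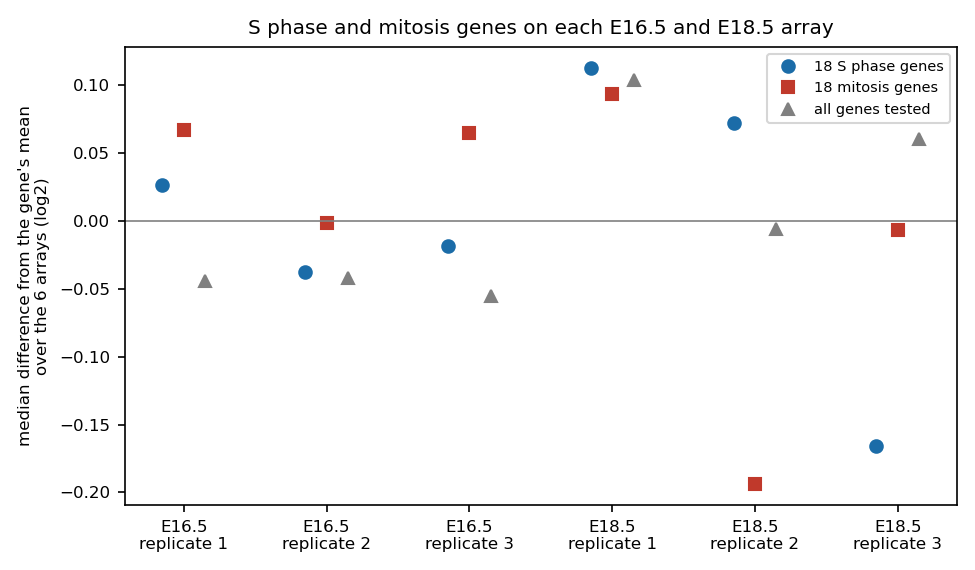
Median log2 difference from each gene's mean over the 6 later arrays (vertical axis) for 18 S phase genes, 18 mitosis genes and all genes tested, on each E16.5 and E18.5 array (horizontal axis). On the third E18.5 array S phase genes lie at -0.17 and mitosis genes at -0.01; on the second they lie at 0.07 and -0.19.

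Cell type markers moved with the stages and between these arrays, and their part in the cell cycle values was not tested. Their counts stand beside 7.28% of all genes that rose from E16.5 to E18.5 and 5.58% that fell. From E16.5 to E18.5, 10 of 13 hair matrix and follicle markers rose, and their summed signal went from between 4571 and 5275 to 42036, 21824 and 13852 on the 3 E18.5 arrays. On the third E18.5 array the follicle, basal keratinocyte, adipocyte, periderm and melanocyte sums were the lowest of the stage, and the dermal fibroblast, muscle, erythroid and endothelial sums were the highest. Basal keratinocyte sums were 76222, 74335 and 63026, and dermal fibroblast sums 149228, 169088 and 190628. Msx2, a homeobox gene of the hair matrix, read 110 to 161 at E16.5 and 885, 477 and 324 at E18.5. Adipocyte markers rose in 7 of 7, and erythroid markers fell in 4 of 10, with sums of 6691 to 12052 before and 2866 to 4450 after. Of the epidermal lists, 2 of 9 basal markers rose and 0 fell, whereas 2 of 12 suprabasal markers rose and 5 fell. Krt25, a keratin of the hair root sheath, lay below background at E16.5 (4.01 to 11.9) and read 11289, 5315 and 2274 at E18.5.

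In the fit over all 34945 probesets, 5 of the 107 member probesets fell and 9 rose from E16.5 to E18.5, against 4.44% and 6.27% of all probesets. The risers included probesets that were not used at gene level: Mcm4 (1436708_x_at, 0.62), Mcm6 (1438852_x_at, 0.79), Mcm7 (1439269_x_at, 0.59) and Aurkb (1451246_s_at, 1.22). The Aurkb probeset, for the Aurora B kinase of chromosome segregation, read 342, 295 and 296 at E16.5 and 772, 721 and 744 at E18.5, whereas the other (1424128_x_at) stayed between 853 and 978 on all 6 arrays. Averaged over both probesets, Aurkb was called as risen (0.60). None of 30 members with several probesets above background had probesets called in opposite directions, against 1.11% of all such genes. The median range among the probesets of a member was 0.52 log2 units.

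Beyond the listed members, the same pathways were read from lists of other genes. Their counts stand beside 5.58% of all genes that fell from E16.5 to E18.5 and 7.28% that rose. Of 40 other replication genes measured, 0 rose and 1 fell, with a median of -0.07. The 1 was Rpa1, which coats single-stranded DNA, at 4238, 3904 and 4052 and then 2812, 2730 and 2385 (-0.62 ± 0.12, limma adjusted p = 0.00971). Of 65 other mitosis genes, 7 fell and 2 rose, with a median of -0.11. Cenpn, a centromere protein (-0.84), and Kifc1, a minus-end kinesin (-0.78), fell, whereas Lmnb1, which encodes lamin B1 of the nuclear envelope, rose by 0.84 and Kif22, a chromosome-binding kinesin, by 0.51. The count of 7 was 0 without the third E16.5 array, 1 without the first or the second, and 14 with median centring.

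Among 28 other cyclins, Cdks and regulators, 1 rose and 2 fell, against 7.28% and 5.58% of all genes. Mycn, a Myc-family transcription factor, rose from 410, 379 and 259 to 1022, 954 and 1147, a change of 1.55 ± 0.21 (limma adjusted p = 0.00225). E2f4, a repressor E2F of resting cells (-0.98), and Ccnd3, the gene of cyclin D3 (-0.38), fell. Under the alternatives, 0 to 6 genes of this list fell and 0 to 3 rose, and 0 to 4 fell without one array. Among 14 Cdk inhibitors and arrest genes, 2 rose and 3 fell, beside the same shares of all genes. Btg1, an antiproliferative gene, rose by 0.98 and Gadd45g, a stress and differentiation gene, by 0.86. Ovol1, a transcription factor of differentiating keratinocytes (-1.03), and Sfn, which encodes 14-3-3 sigma and is also on the periderm list (-0.60), fell. The arrest list thus moved in both directions, with a median of 0.13 beside the 0.12 of all genes. Under the alternatives, 1 to 4 of its genes fell and 1 to 3 rose.

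From E14.5 to E16.5 far more genes were called as changed, in the members as on the whole array. The median signal over all probesets was 63.4 and 60.8 on the E14.5 arrays and 120 to 129 on the E16.5 arrays. The part of this gap in the calls was not tested beyond the rescaling below. Of 47 members, 23 rose and 11 fell, against 37.1% and 20.8% of all genes, and the median change was 0.41, against 0.29. By role, 7 of 18 S phase genes rose and 2 fell, 11 of 18 mitosis genes rose and 3 fell, 4 of 8 cyclins and Cdks rose and 4 fell, and 1 transcription factor rose and 2 fell. With median centring the split turned, to 8 risen and 23 fallen members, and the share of all called genes that rose went from 64.1% to 31.9%. The same scaling moved the median of all genes to -0.55. With quantile normalization the split did not turn, with 19 risen and 11 fallen members. The median of all genes was then -0.03, and 50.6% of all called genes rose.

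By the probeset used for each gene, the members with the greatest rise were Foxm1, Aurka and Plk1. Other probesets of members rose more, among them Rrm1 1448127_at (4.46) and E2f1 1431875_a_at (3.88). Foxm1 rose by 2.99 ± 0.18 (limma adjusted p = 2.98e-07). Aurka, the Aurora A kinase of spindle poles, read 172 and 163 at E14.5 and 1093, 1034 and 1117 at E16.5, a rise of 2.58 ± 0.18. Plk1 read 179 and 220 and then 1124, 1191 and 1311, a rise of 2.51. These 3 rises passed under all 18 alternatives, with changes down to 1.94 for Foxm1, 0.90 for Aurka and 1.66 for Plk1. These lowest values are not alike. Those of Foxm1 and Aurka are averages that take in a dim probeset, above background on 0 arrays (1437138_at) and 1 array (1440129_at). Plk1 had 1 probeset, so averaging could not lower its change.

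Several falls between these stages rest on the choice of probeset. Rrm2 fell (-2.20) by the probeset used (1434437_x_at), from 17407 and 16784 to 4029, 3570 and 3520. Another probeset of Rrm2 (1416120_at) read 114 and 98.8 at E14.5 and 2300, 1831 and 2134 at E16.5, a rise of 4.10, and the third (1448226_at) rose by 1.32. Mcm3 showed the same, with 1426653_at rising (3.16) and 1420029_at falling (-4.10). Ccnd2 had 4 probesets that rose and 3 that fell.

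**Figure D4:**
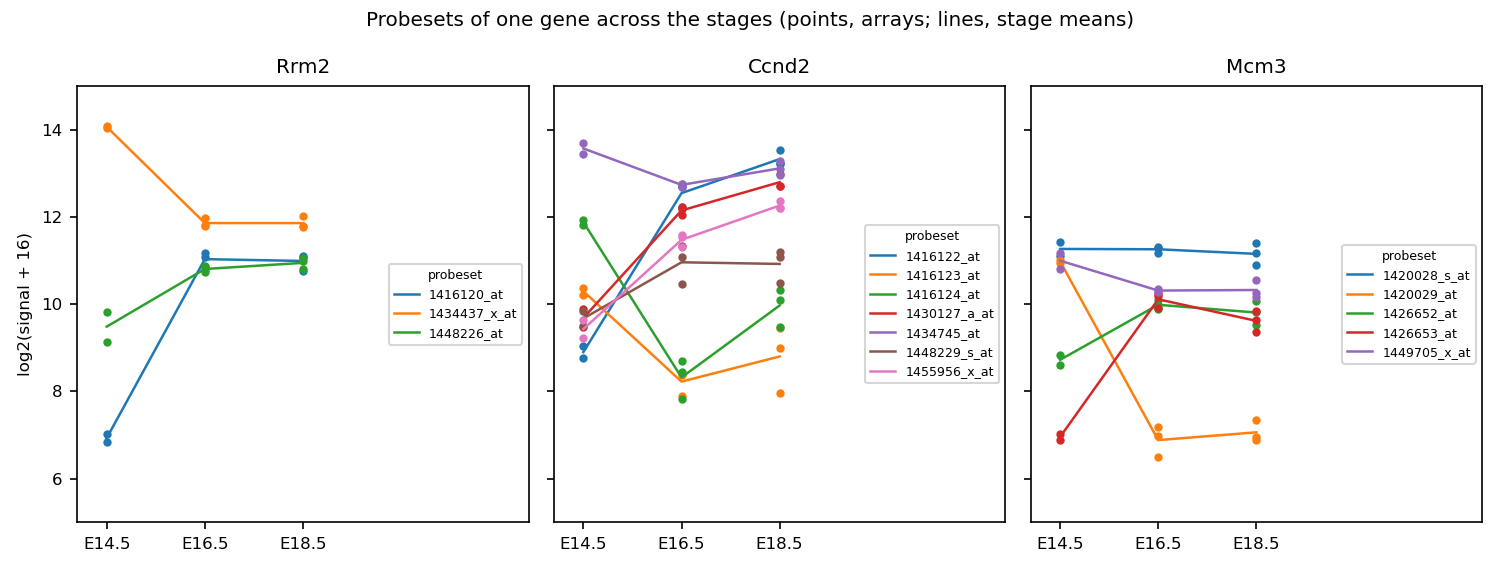
Values of each probeset of Rrm2, Ccnd2 and Mcm3 as log2(signal + 16) (vertical axis) at the 3 stages (horizontal axis); points are arrays and lines join stage means. Lines of one gene cross or diverge between E14.5 and E16.5, where Rrm2 probesets moved by -2.20 and 4.10. From E16.5 to E18.5 the probesets of Ccnd2 still differ, from -0.04 to 1.65, and those of Mcm3 run from -0.49 to 0.18.

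Over all member probesets 53 rose and 26 fell from E14.5 to E16.5, against 38.9% and 18.7% of all probesets. Of 30 members with several probesets above background, 13 had probesets called in opposite directions, against 34.1% of such genes overall. The 13 were Aurkb, Bub1, Ccna2, Ccnd1, Ccnd2, Cenpa, E2f1, E2f8, Mcm3, Mcm5, Mcm6, Mcm7 and Rrm2. The median range among probesets of a member was 2.71 log2 units here, against 0.52 in the later comparison, and 27 of the 30 ranges were over 1, against 6. The part of the actin 3′ to 5′ ratio in this was not tested.

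Genes of the other pathway lists changed in both directions as well between E14.5 and E16.5, where 37.1% of all genes rose and 20.8% fell. Of 40 other replication genes, 18 rose and 13 fell, the greatest being Pola2 (2.86) and Pold2 (2.51) upwards and Fen1 (-3.12) and Pold1 (-2.78) downwards, all parts of DNA synthesis machinery. Of 65 other mitosis genes, 23 rose and 24 fell, led by Fam83d (3.74) and Ncapd2 (2.73) and by Lmnb1 (-3.45) and Ncapg (-3.09). Of 28 other cyclins and regulators 12 rose and 9 fell, and of 14 inhibitors and arrest genes 9 rose and 2 fell.

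Against E14.5, the E18.5 arrays gave 20 members that rose and 11 that fell, beside 41.7% and 19.5% of all genes. This comparison shares its E14.5 arrays with the one before it and its E18.5 arrays with the later one. Of the 5 genes that fell after E16.5, Foxm1 was still 4.77-fold above E14.5 at E18.5 (limma adjusted p = 1.91e-06) and E2f8 was 2.29-fold below it (limma adjusted p = 2.56e-05). Tk1 (0.30, limma adjusted p = 0.0624), Ccne1 (0.24, limma adjusted p = 0.300) and Bub1 (-0.19, limma adjusted p = 0.596) did not pass. By the probesets used, Tk1, Ccne1, Bub1 and Foxm1 had their highest stage mean at E16.5, and E2f8 had its highest at E14.5. Some other probesets gave another order. For Ccne1, 1416492_at had stage means of 541, 486 and 347. In the fit over all probesets it was lower at E18.5 than at E14.5 (-0.62, limma adjusted p = 0.0148). The second E2f8 probeset (1444319_at) had stage means of 33.6, 291 and 122, the second Bub1 probeset (1438571_at) was highest at E14.5, with 261, and 1448834_at of Foxm1 was highest at E18.5, with 537.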

How the data were processed

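Dorsal skin was profiled on 8 Affymetrix Mouse Genome 430 2.0 arrays. The deposited signal intensity per probeset is on a linear scale. Affymetrix Expression Console 1.1 and PLIER 2.0 appear in the submitters' processing notes, with their roles unstated; the background correction and the normalization were not given in the sources used here. Per the labels' protocols, targets were amplified from random hexamers in a whole-transcript protocol, although the array is a 3′ design, so how targets were made is uncertain. Nothing was normalized again here.

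Stages come from the age labels, and replicate numbers follow accession order. The sample titles also carry number codes, parts of which recur at different stages; what they mark is unstated, so a shared litter or batch was not tested. Signals were analysed as log2(signal + 16); adding 16 understates changes of dim genes. The limma package (3.58.1, in R 4.3.3) estimated a mean for each stage from all 8 arrays, with a variance trend. Each gene was read from the probeset with the highest mean, and p-values were Benjamini-Hochberg adjusted over 18193 genes, with a second fit over 34945 probesets. Of 45101 probesets, 64 were controls, 932 carried several symbols and 9211 none here; these were left out, so Tyms and Foxm1 each lost a probeset shared with another gene. The number of arrays limits the precision. The script was tested on simulated data.

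Members and lists were chosen with earlier results of these data known, so counts are read against all genes and no list was tested as a set. Every member could be named; of each pathway list, the 2 called genes that rose most and the 2 that fell most per comparison. Alternatives covered the pseudocount, scaling, dim-gene filter, variance setting, probeset choice, arrays in the fit, and each array left out; those for the pathway lists were added after the data were seen.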

Additional observations from a re-analysis of the deposited data

How the results depend on the processing

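From E16.5 to E18.5, 3 members fell under each of quantile normalization, no variance trend, and the mean or the median of probesets, and 1 to 6 without one array: 2 without E16.5 replicate 1, 1 without replicate 2 or 3, and 3 without E18.5 replicate 2. In these, 2 rose with quantile normalization (Mad2l1, Mcm5), 1 (Ccnd2) with the dim-gene filter or robust variance, 2 with the mean and 3 with the median of probesets, and 0 to 3 without one array. The S phase median was -0.18 with median centring and 0.20 with the mean of probesets, and -0.05 to 0.06 without one array; the mitosis median was -0.22 with median centring and -0.09 to -0.00064 without one array. Over all genes 2340 were called, and 758 to 2624 without one array (987, 1005 and 758 without E16.5 replicates 1, 2 and 3).

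From E14.5 to E16.5, 23 members fell and 8 rose with median centring, 7 fell with the mean of probesets, and 8 to 13 fell and 20 to 25 rose without one array. A lone remaining E14.5 array was assumed to vary like the other stages. With the mean and the median of probesets, signs reversed for Aurkb from E16.5 to E18.5 (0.60 in both) and, from E14.5 to E16.5, for Mcm6 (-0.40, -0.51), Rrm2 (1.07, 1.56), Bub1 (-0.029 in both), Ccna2 (0.15 in both), Ccnd1 (1.82, 2.64), Ccnd2 (0.42, 1.78), E2f1 (1.32, 2.91) and E2f8 (0.93 in both). With median centring they reversed for Gmnn (-0.39), Bub1 (-0.091), Mad2l1 (-0.44), Cenpa (-0.28), Ube2c (-0.059) and Cdk1 (-0.28), and with a pseudocount of 64, which picks another probeset, for E2f1 (3.00). The causes were not tested beyond these settings. No paired analysis was possible because the number codes in the titles do not run alike over the stages and their meaning is unstated; any 2 stages share at most 1 leading code. The small number of arrays limits every call.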
